A study of Bos taurus with 44 samples.

Results

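SERPINA14, the uterine serpin, also called uterine milk protein, was followed through 44 2-colour arrays of cattle endometrium. It was chosen by its gene symbol, which 1 probe of 13824 carries (1 gene of 8073 named on the array), and the 2 adjacent spots of that probe were averaged. Serpins are a family of proteins most of which block serine proteases by offering a loop as bait. Uterine serpin is a member that the glands of the endometrium secrete into the uterine lumen. In sheep it is a main protein of the secretion of the pregnant uterus, its RNA rises under progesterone, and the protein lowers the proliferation of lymphocytes.

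The arrays compared the endometrium of cattle after transfer of embryos made by in vitro fertilisation (IVF-ET) or by somatic cell nuclear transfer (SCNT), after artificial insemination (AI), and of CJ animals, whom the labels tie to the word cycle. Caruncular tissue, where the placenta attaches, and intercaruncular tissue between caruncles were put on separate arrays. In each area 5 IVF-ET animals and 5 AI animals, coded IAT, formed a closed loop of 10 arrays, each animal being on 2 arrays, once in each dye. Intercaruncular RNA of 5 SCNT animals was set against 5 CJ animals on 10 arrays, and that of 4 other AI animals, coded IAJ, against the same CJ animals on 10 arrays. Caruncular SCNT and AI (IAJ) RNA met only as pools, 2 of each, on 4 arrays. The labels give neither the number of animals in a pool nor breed, age or day. All 5 IVF-ET and 3 of the IAT animals are in both loops, and no animal is both IAT and IAJ.

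Values are log2 ratios of the 2 dyes, read as Cy5 over Cy3. The labels do not state the numerator, and this reading is likely because interferon-stimulated genes are then higher and OXTR, the oxytocin receptor, lower in SCNT and AI than in CJ animals, as is known for early pregnancy in ruminants. With the other reading every ratio, level and difference below turns its sign, while spreads and correlations stay. Ratios hold no absolute level, so the labelled tissue could not be checked against its markers, and the areas, never put on 1 array, can be set side by side only relative to the mean of each loop.

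Some animals stood apart by other genes. In the fit with CJ, the median of interferon-stimulated genes was -1.94 in IAJ animal 3, against 1.17 to 2.08 in the other IAJ animals and -2.05 to -1.47 in CJ animals. The median of stroma was 1.44 in IAJ animal 3, against -1.05 to -0.57 in the other IAJ animals and 0.17 to 1.75 in CJ animals, so that in both lists this animal lay among CJ animals against its label. Its OXTR level of 0.90 lay between the other IAJ animals (-2.27 to -0.48) and CJ animals (1.79 to 2.35), and its median of gland and luminal epithelium, 0.08, among the other IAJ animals (-0.03 to 0.08) and above CJ animals (-0.35 to -0.07). In the intercaruncular loop the median of interferon-stimulated genes was 3.61 in IVF-ET animal 4 and 3.12 in IAT animal 4, against -1.74 to 0.37 in the other 8 animals. The main spreads, group differences and counts that rest on these 3 animals are also given without them. Correlations across arrays are also given without their intercaruncular arrays, which leaves 33 of 40. The caruncular arrays of IVF-ET animal 4 and IAT animal 4 stay in these correlations.

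SERPINA14 was among the most variable genes on these arrays. Animals of the same group differed more than the group means did, except caruncular AI animals. These spanned 0.51, against 0.64 between the group means. The SERPINA14 ratio exceeded 1 in size, a difference of over 2-fold, on 65.9% of arrays (29 of 44). The median of all probes was 0.0% of arrays, and 0 probes passed 1 on more of them. Both spots gave the same sign on 42 of 44 arrays, with a median gap of 0.12 and a correlation of 0.996 across arrays. The ratios ran from -4.67 to 6.02.

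In the caruncular loop, IVF-ET animal 4 was higher than both AI partners, by 2.41 over IAT animal 4 and 2.71 over IAT animal 2. IVF-ET animal 1 was higher than its partners too, by 1.19 over IAT animal 7 and 2.02 over IAT animal 5. IVF-ET animal 5 gave -1.11 against IAT animal 6 and -0.62 against IAT animal 4. The ratios of IVF-ET animals 2 and 3 were within 0.37 of 0, so that the loop held a pair of high animals, a low one and others close to AI.

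In the intercaruncular loop the same IVF-ET animals led with larger ratios. IVF-ET animal 4 was higher by 3.38 than IAT animal 4 and by 4.22 than IAT animal 2, and IVF-ET animal 1 by 2.20 than IAT animal 7 and by 1.75 than IAT animal 1. IVF-ET animal 5 gave -3.64 against IAT animal 4 but 1.93 against IAT animal 3, which shows how far apart these AI animals were. IVF-ET animal 2 gave -1.66 against IAT animal 1 and -0.09 against IAT animal 3. IVF-ET animal 3 gave -0.28 and -1.28.

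The arrays with CJ held the widest ratios. IAJ animal 4 gave 6.02 against CJ animal 4, a ratio of 65.1-fold, and 3.34 against CJ animal 1. IAJ animal 3 lay on the other side, with -4.67 against CJ animal 5, -1.45 against CJ animal 4, and -3.47 and -2.60 against CJ animal 3 with the dyes exchanged. IAJ animal 2 gave 2.87 and -1.50 and IAJ animal 1 gave -0.14 and -2.08. The ratios of SCNT over CJ animals ran from -2.20 to 3.09 with a median of -0.12, and were 3.09 and 2.43 where the partner was CJ animal 4 but -2.20 and -1.09 where it was CJ animal 5.

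**Figure D1:**
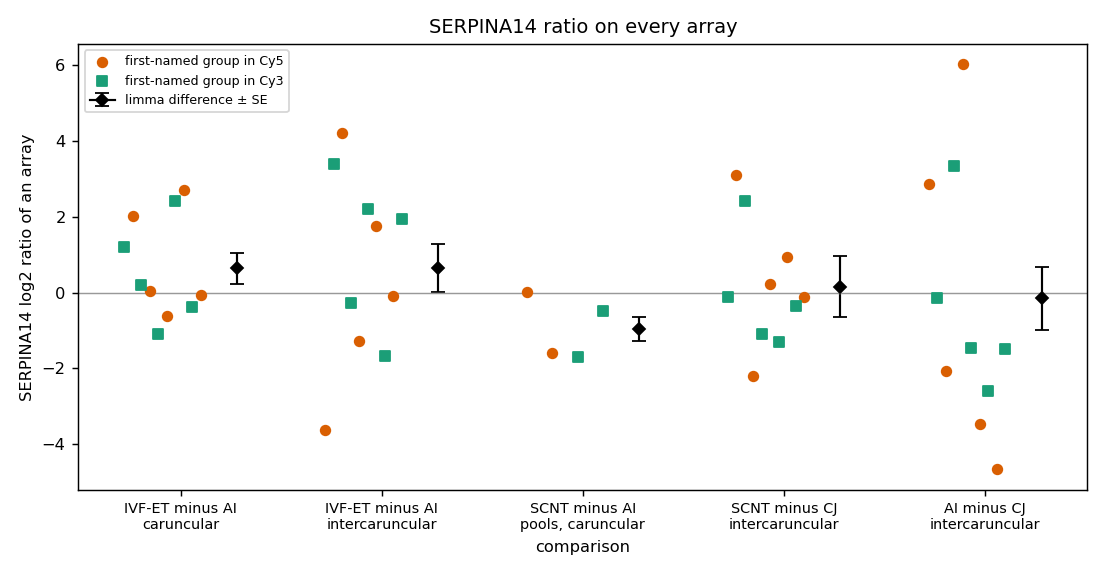
Each point is the SERPINA14 log2 ratio of 1 array, first-named group over second, by comparison and by the dye of the first-named group, and the diamond is the limma difference with its SE. In every comparison of single animals the arrays lie on both sides of 0, from -4.67 to 6.02 where AI was set against CJ.

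A level for each animal was then solved from the arrays it shared, as log2 relative to the mean of all animals of its loop or fit. Bulk RNA cannot tell fewer gland cells from less SERPINA14 RNA per cell. In caruncular tissue the levels of IVF-ET animals 1 to 5 were 1.16, -0.31, -0.45, 2.28 and -1.10. Those of IAT animals 2, 4, 5, 6 and 7 were -0.25, -0.30, -0.68, -0.17 and -0.20. The AI animals lay inside the range of the IVF-ET animals, and IVF-ET animals 4 and 1 were above all of them.

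IVF-ET animals spanned 10.4-fold in caruncular tissue and IAT animals 1.43-fold, with means of 0.32 ± 1.37 in IVF-ET and -0.32 ± 0.21 in AI animals (SD, n = 5 each). In intercaruncular tissue the levels of IVF-ET animals 1 to 5 were 1.78, -2.56, -0.78, 4.64 and -1.46. Those of IAT animals 1, 2, 3, 4 and 7 were -0.43, -0.04, -2.93, 1.72 and 0.04. The groups overlapped through most of their range, with means of 0.33 ± 2.89 in IVF-ET and -0.33 ± 1.67 in AI animals (SD, n = 5 each), IVF-ET animals spanning 147.0-fold and IAT animals 25.1-fold. Without animal 4 of each group the spans were 20.2-fold in IVF-ET and 7.84-fold in IAT animals, with SDs of 1.84 and 1.41 (n = 4 each). Each loop has as many arrays as terms to solve, so these levels carry no error of their own.

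In the 20 arrays with CJ, levels had 6 residual degrees of freedom and hence an error. SCNT animals 1 to 5 were at 0.30 ± 0.52, -0.92 ± 0.50, -0.41 ± 0.51, 1.02 ± 0.49 and 0.07 ± 0.50 (SE). IAJ animals 1 to 4 were at -1.33 ± 0.51, 1.15 ± 0.49, -3.15 ± 0.39 and 3.95 ± 0.49. CJ animals 1 to 5 were at 0.76 ± 0.39, -1.21 ± 0.39, -0.15 ± 0.41, -2.23 ± 0.39 and 2.14 ± 0.37. All SCNT animals lay inside the range of CJ animals, while the highest and the lowest animal were both AI.

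In descending order the animals were IAJ 4, CJ 5, IAJ 2, SCNT 4, CJ 1, SCNT 1, SCNT 5, CJ 3, SCNT 3, SCNT 2, CJ 2, IAJ 1, CJ 4 and IAJ 3. Of the 13 neighbouring pairs in that order, 1 was apart by more than 2 SE, namely IAJ animal 4 above CJ animal 5 by 1.81 ± 0.66. SCNT animals spanned 3.82-fold, IAJ animals 136.6-fold and CJ animals 20.6-fold, with SDs of 0.73 (n = 5), 3.08 (n = 4) and 1.69 (n = 5). Without IAJ animal 3 the IAJ span was 38.9-fold and the SD 2.64 (n = 3). A model with a random animal effect put 94.6% of the variance of a ratio around the group means between animals, with a variance of 3.67 between animals and 0.419 left over, and the share was 92.8% without IAJ animal 3.

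**Figure D2:**
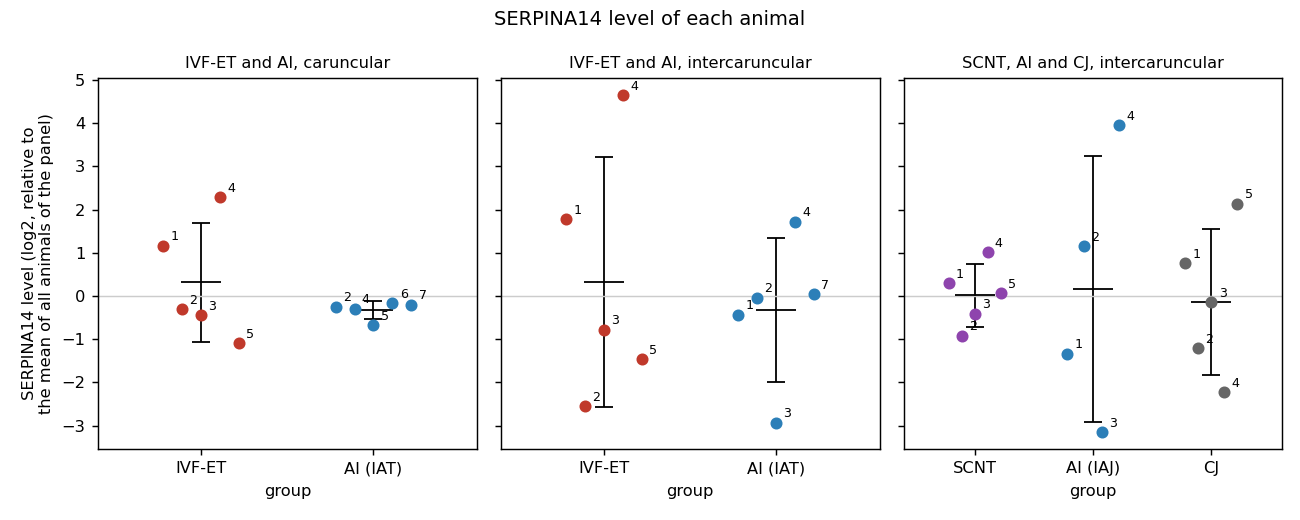
Each point is the SERPINA14 level of 1 animal (log2, relative to the mean of all animals of its panel) with its number, and the bars are the group mean and SD. The groups overlap in each panel, and the widest group is AI (IAJ) with levels from -3.15 to 3.95.

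Set against all probes, the SD between animals of a group was 2.36 for SERPINA14 in the intercaruncular loop, rank 10 of 13772 probes, where the median probe had 0.32. It was 1.96 in the arrays with CJ, rank 2 of 13824 after a probe without a symbol, where the median was 0.19. In the caruncular loop it was 0.98, rank 83, where the median was 0.17. The next probes with a symbol in the arrays with CJ were IFI6, RSAD2 and ISG15, at ranks 3, 4 and 6, all induced by interferon. Their ranks without IAJ animal 3, which stood apart by such genes, are not given here. Without IAJ animal 3 the SERPINA14 SD with CJ was 1.66 and its rank still 2. Without IVF-ET animal 4 and IAT animal 4 its SD in the intercaruncular loop was 1.64, rank 7. Among probes whose 2 spots correlated with r of at least 0.9, SERPINA14 was rank 71 of 1016 in caruncular tissue, 10 of 2904 in the intercaruncular loop and 2 of 3353 with CJ.

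**Figure D3:**
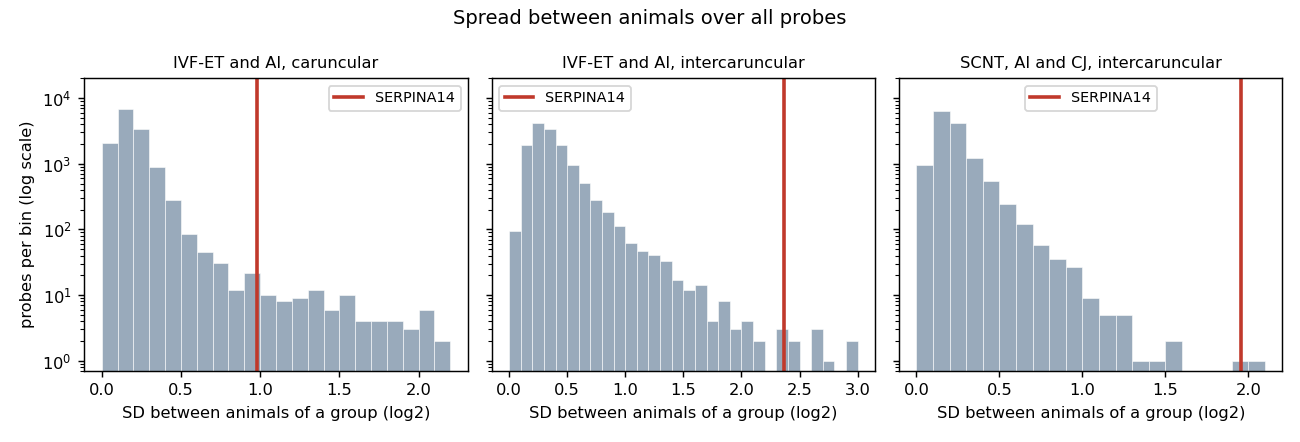
Bars count the probes by the SD of their levels between animals of a group (log2), on a log scale, and the line marks SERPINA14. The line lies far to the right in both intercaruncular panels, at 2.36 and 1.96, and nearer the bulk in the caruncular panel, at 0.98.

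An animal high in SERPINA14 in one area tended to be high in the other. Over the 8 animals with both areas, Pearson's r between the levels was 0.853 (exact permutation p = 0.00766, two-sided) and Spearman's rho 0.857 (exact permutation p = 0.0107), the only relation across animals that was tested. Levels had the same sign in both areas in 6 of 8 animals, and were spread 2.09 times as widely in intercaruncular tissue. That gap depended on the scale of the arrays: the SD over all 10 animals of a loop was 2.25 in intercaruncular and 0.99 in caruncular tissue as deposited, but 1.61 and 1.52 with arrays centred and scaled. The relation rests on IVF-ET animals 4 and 1, without which r was 0.365 (exact permutation p = 0.41, 6 animals left). Of the probes with a value, 191 (1.39%) had an r as high or higher, and the median probe had 0.03. Animals of a loop share arrays, so the levels are not fully independent, and 8 animals of both groups were pooled because the 3 AI animals alone are too few.

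**Figure D4:**
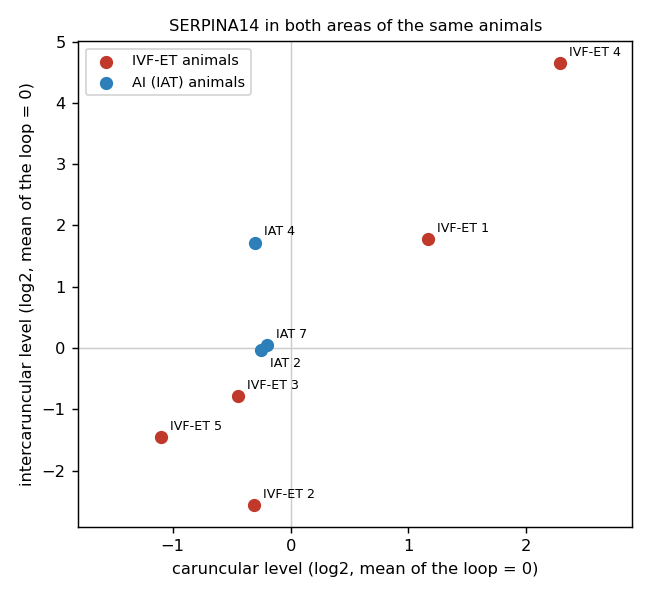
Each point is 1 of the 8 animals measured in both areas, its caruncular SERPINA14 level on the x axis and its intercaruncular level on the y axis (log2, mean of each loop 0). IVF-ET animals 4 and 1 are high in both areas, while IAT animal 4 is high in intercaruncular tissue alone.

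No group comparison of SERPINA14 passed the test, limma's moderated test with Benjamini-Hochberg adjustment over all probes at 0.05. IVF-ET minus AI was 0.64 ± 0.41 in caruncular tissue (SE, 95% interval -0.25 to 1.53, adjusted p = 0.657). The comparison called 0.0217% of probes, and its SE for SERPINA14 was the 44th largest of 13824, against a median of 0.06. In intercaruncular tissue IVF-ET minus AI was 0.65 ± 0.63 (95% interval -0.71 to 2.02, adjusted p = 0.791), where 0.00724% of probes were called and no probe had a larger SE. This intercaruncular value was -0.14 without IVF-ET animal 4, and 0.34 ± 0.47 without IVF-ET animal 4 and IAT animal 4. With array weights it was 1.10 ± 0.50 (p = 0.0445 before and 0.415 after adjustment in limma). Caruncular minus intercaruncular difference was -0.01 ± 0.82 (95% interval -1.72 to 1.69, adjusted p = 0.998), in a comparison that called 0.00723% of probes. The common correlation was 0 in the intercaruncular loop and 0.01 for both loops. Limma's SEs there, array weights included, thus took arrays as nearly independent though each animal was on 2, and may be too small. Intercaruncular SDs between animals were 2.89 in IVF-ET and 1.67 in AI animals (n = 5 each). The exact permutation test of intercaruncular levels gave p = 0.698, against limma's unadjusted p = 0.322. No random animal effect was fitted to the loops.

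The pooled caruncular comparison gave the value farthest from 0 in units of limma's moderated SE. SCNT pool 1 over AI pool 2 gave 0.00 and -0.50 with the dyes exchanged, and SCNT pool 2 over AI pool 1 gave -1.61 and -1.71. The pairs of pools averaged -0.25 and -1.66, so that 1 pair was near 0 and the other lower in SCNT on both arrays. Their mean was -0.95 ± 0.32 (limma's moderated SE, 95% interval -1.76 to -0.15), with p = 0.0283 before and 0.324 after adjustment in limma. That SE and interval borrow from the variances of all probes and are not the spread of the 2 pairs alone. Robust moderation gave an SE of 0.41 and p = 0.0998 before adjustment in limma. The comparison called 0% of probes, 0 of 13824, against 1744 with an unadjusted p under 0.05. What a pool holds of each animal is not known, so 1 animal with an extreme level in a pool cannot be told apart from a shift of all its animals.

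Against CJ animals, SERPINA14 differed by 0.15 ± 0.80 in SCNT animals (95% interval -1.51 to 1.81, adjusted p = 0.947) and by -0.16 ± 0.83 in AI animals (95% interval -1.88 to 1.56, adjusted p = 0.974). The fit called 21.7% of probes for SCNT and 15.0% for AI, and no probe had a larger SE than SERPINA14 in either. Both intervals still hold differences of over 2-fold in either direction. The AI value was 1.42 ± 0.82 without IAJ animal 3 (adjusted p = 0.291, 20.4% of probes called) and -1.43 without IAJ animal 4. The SCNT value was -0.51 without CJ animal 4 and 0.61 without CJ animal 5. With all animals and a random animal effect for SERPINA14 alone, the difference was 0.15 ± 1.23 in SCNT and 0.26 ± 1.30 in AI animals (SE).

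SCNT minus AI in intercaruncular tissue, known only through CJ, was 0.31 ± 1.04 for SERPINA14 (95% interval -1.85 to 2.47, adjusted p = 0.997, 0.282% of probes called). It was -1.27 ± 1.04 without IAJ animal 3 and 1.58 without IAJ animal 4. Exact permutation tests of the animal levels gave p = 0.397 and 0.698 for IVF-ET minus AI in caruncular and intercaruncular tissue, 0.849 for SCNT minus CJ, 0.833 for AI minus CJ and 0.921 for SCNT minus AI (two-sided, smallest possible p 0.00794).

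The array holds 13 other serpins. Their correlation with SERPINA14 over the 40 arrays of single animals, given as a description of arrays that share animals, ran from -0.28 for SERPINF1 to 0.44 for SERPINB8 with a median of 0.01. Without the intercaruncular arrays of the 3 animals that stand apart, over 33 arrays, it ran from -0.24 to 0.29. Within a set of arrays some were higher, as SERPINE2, an inhibitor of thrombin and plasminogen activators, with 0.85 in caruncular and 0.61 in intercaruncular arrays of the loops and 0.28 with CJ, and SERPINB8, SERPING1 and SERPINB6 with 0.72, 0.70 and 0.70 in the intercaruncular loop but 0.38, 0.23 and -0.05 with CJ. In the ARS-UCD2.0 gene table SERPINA14 stands between SERPINA11 and SERPINA12 in a cluster of related serpins. Of that cluster, SERPINA1, the alpha-1 antitrypsin gene, correlated at 0.19, SERPINA6, which encodes corticosteroid-binding globulin, at 0.01 and SERPINA3-3 at -0.15.

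Against CJ animals, 3 of the 13 other serpins rose in SCNT and 4 fell, where 21.7% of all probes were called. In AI animals 2 rose and 4 fell (15.0% of all probes called), or 2 and 2 without IAJ animal 3 (20.4%). The median difference of all 13 was 0.00 for SCNT and -0.01 for AI, beside 0.01 for all probes in both. SERPING1, the inhibitor of complement C1, rose by 1.99 ± 0.29 in SCNT and 1.10 ± 0.30 in AI animals (limma adjusted p = 3.89e-05 and 0.0146). SERPINH1, a chaperone of collagen, fell, with -2.04 ± 0.21 in SCNT and -1.74 ± 0.22 in AI animals. SERPINA1, the nearest neighbour measured, fell, with -1.28 ± 0.27 in SCNT and -0.84 ± 0.28 in AI animals (adjusted p = 0.00129 and 0.0424). SERPINB6 rose by 0.60 in SCNT and 0.42 in AI animals. SERPINE2 fell, with -0.74 in SCNT and -0.47 in AI animals. SERPINB1, an inhibitor of neutrophil proteases, rose by 0.68 ± 0.12 in SCNT animals, where SERPINF1, an inhibitor of blood vessel growth, fell, with -1.44 ± 0.31. SERPINB8 fell in AI animals, with -0.24 ± 0.07 (limma adjusted p = 0.0352). No other serpin passed in the IVF-ET, pooled or SCNT against AI comparisons.

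Several other products of the uterine glands differed from CJ animals. Of 67 listed secretions 40 were measured. Against CJ animals 11 rose and 5 fell in SCNT, and 8 rose and 2 fell in AI (12 and 4 in AI without IAJ animal 3). Their median difference was 0.05 in SCNT and 0.11 in AI, beside 0.01 for all probes. The shares are to be read against the 21.7% and 15.0% called over all probes. For AI without IAJ animal 3 that share was 20.4%. CST3, the protease inhibitor cystatin C, rose by 1.37 ± 0.11 in SCNT and 0.53 ± 0.11 in AI animals. PTGDS, a prostaglandin D synthase, rose by 1.50 ± 0.19 in AI animals, and PLAU, the urokinase plasminogen activator, fell, with -1.60 ± 0.18 in SCNT and -1.17 ± 0.19 in AI animals. The correlation of the secretions with SERPINA14 had a median of 0.05 and ran from -0.48 for LTF, lactoferrin, to 0.59 for RBP4, the retinol carrier. Over the 33 arrays left without the intercaruncular arrays of the 3 animals, the median was 0.10 and the range -0.30 to 0.56.

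Markers of gland and luminal epithelium had a median correlation of 0.23 with SERPINA14 and those of stroma -0.35. Without the intercaruncular arrays of the 3 animals that stand apart these medians were 0.21 and -0.26. Of 18 epithelial markers 9 rose and 2 fell in SCNT and 4 rose in AI against CJ animals, or 8 rose and 3 fell in AI without IAJ animal 3, beside 21.7%, 15.0% and 20.4% of all probes called. Among those that rose in both was CLDN3, a tight junction protein (1.28 ± 0.17 in SCNT and 0.98 ± 0.17 in AI). Of 10 stromal markers 9 fell in SCNT and 5 in AI, or 9 in AI without IAJ animal 3. Of 9 interferon-stimulated genes 9 rose in SCNT and 8 in AI, or 9 in AI without IAJ animal 3. Their direction was used to choose the reading of the dyes and is no separate result. Their median correlation with SERPINA14 was 0.24, or 0.15 without the intercaruncular arrays of the 3 animals. None of these lists had a member past the threshold in either IVF-ET loop.

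Beside the extreme SERPINA14 levels, these medians pointed in different directions. In the intercaruncular loop IVF-ET animal 4, highest in SERPINA14, had a median of stroma of -1.90 and a median of gland and luminal epithelium of 0.83, while IVF-ET animal 1, also high in SERPINA14, had 0.90 and -0.39. IAT animal 3, the lowest, had a median of stroma of 1.11 and a median of gland and luminal epithelium of -0.30. In caruncular tissue IVF-ET animals 4 and 1 had a median of stroma of 0.04 and -0.04. Their medians of gland and luminal epithelium there were 0.079 and 0.077. Their medians of interferon-stimulated genes, -0.45 and -0.29, lay below those of the other animals of that loop (-0.245 to 0.344). With CJ, the highest animal of each kind, IAJ animal 4 and CJ animal 5, had a median of interferon-stimulated genes of 1.17 and -2.05. The median of uterine gland secretions lay between -0.12 and 0.13 in all animals of the 3 fits. The part of tissue composition in the SERPINA14 levels was not tested.

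Among the hormone receptors, OXTR was lower than in CJ animals, with -3.54 ± 0.32 in SCNT and -2.71 ± 0.33 in AI. The direction of OXTR was used to choose the reading of the dyes and is no separate result. PGR, the progesterone receptor, was lower too, with -1.17 ± 0.12 in SCNT and -0.52 ± 0.13 in AI. ESR1, an estrogen receptor, was at -0.31 ± 0.15 in SCNT and -0.14 ± 0.15 in AI and did not pass. Across the 40 arrays their correlation with SERPINA14 was -0.12 for OXTR, -0.12 for PGR and -0.15 for ESR1. Without the intercaruncular arrays of the 3 animals that stand apart it was -0.19, -0.19 and 0.00.

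The genes whose ratios were most like those of SERPINA14 were named by correlation over the 40 arrays, among 8066 genes whose median size of r was 0.16 and 99th percentile 0.57. SEC11C, a subunit of the signal peptidase that trims secreted proteins, led with 0.76, and reached 0.82 in caruncular arrays, 0.93 in intercaruncular arrays of the loop and 0.68 in the arrays with CJ. GUCY1B1, a subunit of soluble guanylate cyclase, followed with 0.70 and CEBPD, a transcription factor, with 0.68, CEBPD reaching 0.84 in the caruncular and 0.95 in the intercaruncular loop and 0.58 with CJ. SPRY2, an inhibitor of growth factor signalling, ATF4, a transcription factor of the stress response, VIPR2, a receptor of vasoactive intestinal peptide, PPP1CB, a phosphatase subunit, and ASL, argininosuccinate lyase, had 0.67, 0.66, 0.66, 0.65 and 0.64. Over the 33 arrays left without the intercaruncular arrays of the 3 animals, these 8 ran from 0.45 for PPP1CB to 0.74 for VIPR2. SEC11C was at 0.59 and GUCY1B1 at 0.68.

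Opposite to SERPINA14 were FABP7, a fatty acid-binding protein (-0.71), C7H19orf53 (-0.70), CYB5R3, a cytochrome b5 reductase (-0.67), and PIK3R2, a regulatory subunit of phosphoinositide 3-kinase (-0.67). C7H19orf53 kept its sign in all 3 sets of arrays, as did CYB5R3 and the 8 similar genes, while FABP7 was at 0.08 and PIK3R2 at -0.05 in the caruncular loop. Without the intercaruncular arrays of the 3 animals these 4 ran from -0.59 for FABP7 to -0.39 for PIK3R2. The 3 sets, and the arrays left after that removal, are parts of the 40 arrays by which these 12 genes were picked. A kept sign in such parts is largely set by that choice and is no separate support. In intercaruncular tissue SEC11C was at 2.45 in IVF-ET animal 4 and 1.53 in IAT animal 4, the animals that stand apart by interferon-stimulated and stromal genes, and at -0.98 in IAT animal 3. IVF-ET animal 1, second in SERPINA14 level, had SEC11C at -0.07. In the arrays with CJ SEC11C was at 0.54 in IAJ animal 4 and -1.13 in IAJ animal 3, but the highest animal was CJ animal 3 with 0.86. None of these 12 genes passed the test in any of the 7 comparisons, the closest being ASL in SCNT against CJ animals (0.41 ± 0.15, limma adjusted p = 0.0559). In the pooled caruncular comparison GUCY1B1 was at -1.11 ± 0.18 (adjusted p = 0.133).

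**Figure D5:**
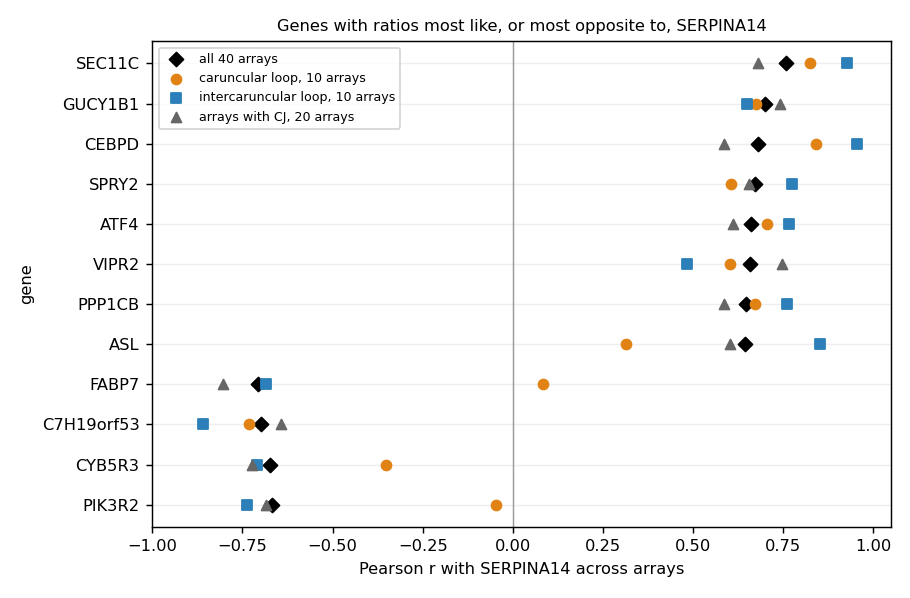
Points give Pearson's r with SERPINA14 across arrays for the 8 genes most like it and the 4 most opposite, over all 40 arrays of single animals and within each set of arrays. SEC11C leads with 0.76 over all arrays, and FABP7 and PIK3R2 lie near 0 in the caruncular loop.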

How the data were processed

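Each spot of an array has a log2 dye ratio deposited by the authors; 100.0% of the 331 values below -4 equal log2 of a ratio with 4 decimals. The sources used here name no normalization or background correction, and spot intensities were not analysed here. Array medians lay between -0.0164 and 0.0124, array SDs between 0.221 and 0.62, and correlations of the 2 spots between 0.545 and 0.935. Precision is limited by the number of animals as well as of arrays. Spots were averaged over 27648 rows, and a probe was tested if 80% or more of the arrays had a value (8645 probes with 1 symbol, 105 with several, 5074 with none, from the supplied platform annotation and ARS-UCD2.0 gene table).

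Generalised least squares fits had a term for the dye and a common correlation of arrays with an animal in common (0.13 for caruncular, 0 for intercaruncular, 0.01 for both loops together, 0.12 with CJ), with variances moderated by limma 3.58.1 in R 4.3.3. Dye-swapped pools were averaged per pair and tested against 0. The labels tie no number to a shared litter or day. Limma's p-values rest on the spread between arrays, with the common correlation for shared animals, and in the pooled comparison on pairs of pools. The exact permutation p-values of the group differences rest on the animal levels. The fits were tested on data simulated with the common correlations, while SERPINA14 alone had 0.473 in the arrays with CJ. That test thus does not cover the spread of this gene. Animal levels were solved by least squares. Genes were named by rule: SERPINA14, the 8 highest and 4 lowest correlations with it, PGR, ESR1 and OXTR, up to 4 members per list and comparison with the smallest p, and serpins past the threshold; LTF and RBP4, the ends of a range, and SERPINA6 and SERPINA3-3, neighbours in the gene table, were named after their values were seen. The gene and the lists were chosen with earlier results of these data known. The alternatives were single spots, centring and scaling of arrays, array weights, robust moderation, the filter, dye term, correlation, permutation and leaving out animals. Alternatives for the SD of levels, and the fits without IAJ animal 3 or without IVF-ET animal 4 and IAT animal 4 together, were chosen after seeing the data. So were the spreads without these animals and the correlations without their intercaruncular arrays.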

Additional observations from a re-analysis of the deposited data

Results flagged for a closer look

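In the caruncular loop the SERPINA14 level of IAT animal 5 was -0.68, below the other AI animals at -0.30 to -0.17; its gap to the next was 0.743 of the range of the 5 animals, above Dixon's limit of 0.71. IVF-ET animals spanned 10.4-fold in this loop and these AI animals 1.43-fold. Chance flags about 1 in 20 groups, and 7 groups were looked at. No level of any other group passed the limit for its number of animals, IVF-ET animal 4 and IAJ animals 3 and 4 included.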

How the results depend on the processing

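Over 148 alternatives to the 7 differences of SERPINA14, 0 passed the threshold. The count includes the single pairs of pools, which had no test, and fits that could not move a value. Leaving out any AI animal, for example, left SCNT minus CJ at 0.15. IVF-ET minus AI ran from 0.15 to 1.02 in caruncular tissue and from -0.14 to 1.03 in intercaruncular tissue when an animal was left out, and adjusted p from 0.405 to 0.892 and from 0.415 to 0.964 over all alternatives; with array weights the intercaruncular value was 1.10. Caruncular minus intercaruncular, -0.01 as reported, was 0.0478 with the second spot alone and 0.32 with arrays centred and scaled, and ran from -0.29 to 0.29 without 1 animal; the cause was not tested. AI minus CJ was 0.13 with array weights, 0.29 between mean animal levels and 0.26 ± 1.30 with a random animal effect, and SCNT minus AI -0.14 between mean levels and -0.11 ± 1.32 with that effect. Without 1 animal, SCNT minus CJ ran from -0.51 to 0.61, AI minus CJ from -1.43 to 1.42 and SCNT minus AI from -1.27 to 1.58. The pairs of pools alone gave -1.66 and -0.25, with no test. The SD of caruncular levels over all 10 animals, 0.99 as deposited, was 1.52 with arrays centred and scaled and 0.61 (without IVF-ET animal 4) to 1.04 without 1 animal. Groups could not be paired because replicate numbers of the labels name animals or arrays, not pairs across groups. Across the areas 8 animals could be paired, but the main caruncular minus intercaruncular fit took the areas of an animal as separate. With a block per animal across the areas that difference was -0.01 ± 0.81 (SE), the common correlation over all probes being 0. Over all probes, the IVF-ET comparisons called 0 to 4 probes under the alternatives, against 3, 1 and 1 as reported. The pooled comparison called 94 with the first spot, 2 with the second, 16 with arrays centred, and 257 and 252 with its 4 arrays taken separately, without and with array weights, against 0 as reported; SERPINA14 was not among those called. Without IAJ animal 3, SCNT minus AI called 8 probes against 39. The 2 arrays of a pair of pools hold the same RNA, so fits on 4 separate arrays count it more than once.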
